A study of Mus musculus with 3 samples.

Results

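T-box transcription factors were followed in mouse embryoid bodies, spheres of differentiating embryonic stem cells, as 10 genes that were listed by name: Tbx1, Tbx2, Tbx3, Tbx4, Tbx5, Tbx6, Tbx15, Tbx18, Tbx20 and Eomes. Every array probe whose RefSeq accession belonged to one of these symbols was taken, which gave 14 probes among the 39429 on the array and 10 of its 21153 named genes. The rule that picks the probes uses no measured value, although the list of genes was drawn up with earlier results of these data known. Of the 10 genes, 9 (13 probes) were bright enough to be tested, and Tbx18 was not.

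T-box proteins share a DNA-binding domain, the T-box, that recognises the core sequence AGGTGT, and they activate or repress the genes they bind. Eomes and Tbx6 act early, in the primitive streak and the mesoderm that leaves it, whereas Tbx5, Tbx20 and Tbx1 act later in heart progenitors, the first pair together with Nkx2-5 and Gata4. Tbx2 and Tbx3 are repressors that keep chamber genes off in the atrioventricular canal and the conduction system, and Tbx4, Tbx15 and Tbx18 are best known from limb, body wall and epicardial mesenchyme.

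One RNA came from Hopx-/- embryoid bodies that had received XAV939 at 12.5 µM, the other from Hopx+/- embryoid bodies without it, and both were taken on day 8 of a differentiation towards heart cells. XAV939 inhibits tankyrase and thereby raises axin and dampens canonical Wnt signalling, and Hopx encodes a small homeodomain protein of the developing heart that does not itself bind DNA. The embryonic stem cells of both genotypes had been derived from blastocysts and kept on feeder fibroblasts, and the shared differentiation medium held VEGF, bFGF, FGF10 and ascorbic acid. The labels give the inhibitor to the null cultures alone, so the effects of genotype and inhibitor cannot be told apart, and the number of stem cell lines is not stated in the labels.

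The 2 RNAs were hybridised together on each of 3 two-colour Agilent arrays, called biological replicates in the labels, and all values below are log2 ratios of Hopx-null plus XAV939 over Hopx-heterozygous unless they are called levels. The number of arrays limits the precision, and p-values measure the spread between these 3 arrays. Probes well above background made up 56.6% to 68% of each channel. Hopx itself was lower in the null cultures, at -2.65, -2.75 and -2.73 on replicates 1, 2 and 3. Taken as the labels state the dyes, the Cy5 over Cy3 ratios correlated at 0.965 between arrays 1 and 2 but at -0.878 and -0.908 between these and array 3, so array 3 was turned, as the authors' deposited values also were. The direction given here is therefore likely, not settled, and with all signs turned every "higher" below reads "lower" and the reverse. Turning array 3 reads the null RNA as Cy5 on arrays 1 and 2 and as Cy3 on array 3. A dye effect particular to a gene would thus not cancel in the mean, and no dye term was fitted. Replicate 1 had a slide to itself, and replicates 2 and 3 shared the other slide.

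Most of the tested T-box genes fell in the null cultures with inhibitor, Tbx3 most of all and then Tbx1 and Tbx20, while Eomes and Tbx4 rose. Among them 6 genes passed the test as lower (Tbx3, Tbx1, Tbx20, Tbx6, Tbx5 and Tbx15), 2 as higher (Eomes and Tbx4), and Tbx2 did not pass. Called means an adjusted p under 0.05 in limma's moderated test of the mean ratio against 0, with Benjamini-Hochberg adjustment over all 14705 tested genes. Both higher calls lean on the borrowed spread, since Eomes (SD 0.58) and Tbx4 (SD 0.44) varied far more than the median SD of 0.166. Their intervals are narrower than their own SD alone would give. A test on each gene's own spread alone was not run. Of all tested genes, 33% were called lower and 31.5% higher, 64.5% in either direction, so calls were common throughout the array. With all signs turned the members' count would be 6 higher and 2 lower. With the local backgrounds that the scanner software marks as outliers kept, 3 members were lower and 0 higher, against 15.3% and 18.1% of all genes. With median centring in place of loess, 5 were lower and 1 higher, against 13.7% and 20.6%. With array 3 left as labelled, limma called 0 members and 0% of genes. Falls of 1 or more on the log2 scale were made by 3 of the 9 tested members, against 9.55% of all genes, and a rise of that size by 1, against 7.79%. The levels of the 2 RNAs did not overlap between arrays for 6 members that were lower and 2 that were higher, against 34.7% and 33.5% of all genes. The median ratio was -0.67 over the 9 tested members and -0.01 over all tested genes. In these bulk samples fewer cells of a type and less RNA per cell cannot be told apart.

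**Figure D1:**
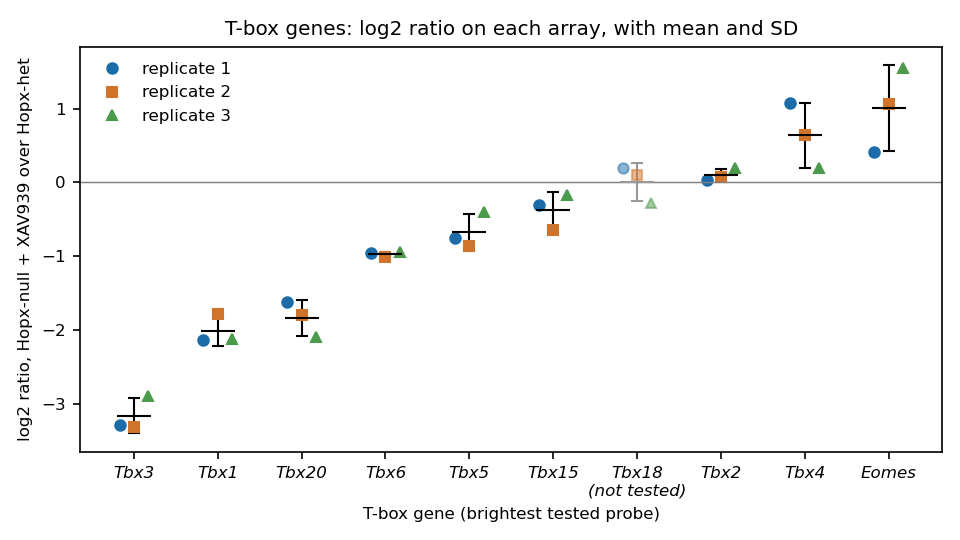
Log2 ratio of Hopx-null plus XAV939 over Hopx-heterozygous RNA for the brightest tested probe of each T-box gene (y axis), ordered by mean (x axis). Points are the 3 arrays, the horizontal bar is their mean and the whiskers are the SD. Tbx3 lies near -3 on every array, Eomes and Tbx4 spread over more than the other genes, and Tbx18 is drawn pale because it was not tested.

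In order of their mean ratio the tested genes ran Tbx3, Tbx1, Tbx20, Tbx6, Tbx5, Tbx15, Tbx2, Tbx4 and Eomes. The values of the 3 arrays overlapped between the neighbours Tbx1 and Tbx20, between Tbx5 and Tbx15, and between Tbx4 and Eomes. The other neighbours in this order did not overlap. All 9 tested members had the same sign on the 3 arrays. The same holds for at least the 34.7% and 33.5% of all tested genes whose RNAs did not overlap in level. Keeping a sign is therefore not particular to the members, and the full share of genes that did so was not counted. Of the 14705 tested genes, 50 (0.34%) had a lower mean ratio than Tbx3, 273 (1.86%) a lower one than Tbx1, and 374 (2.54%) a lower one than Tbx20. Tbx6 had 10.1% of genes below it, Tbx5 16.9% and Tbx15 28.8%. At the other end, 7.64% of genes lay above Eomes and 16.7% above Tbx4.

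**Figure D2:**
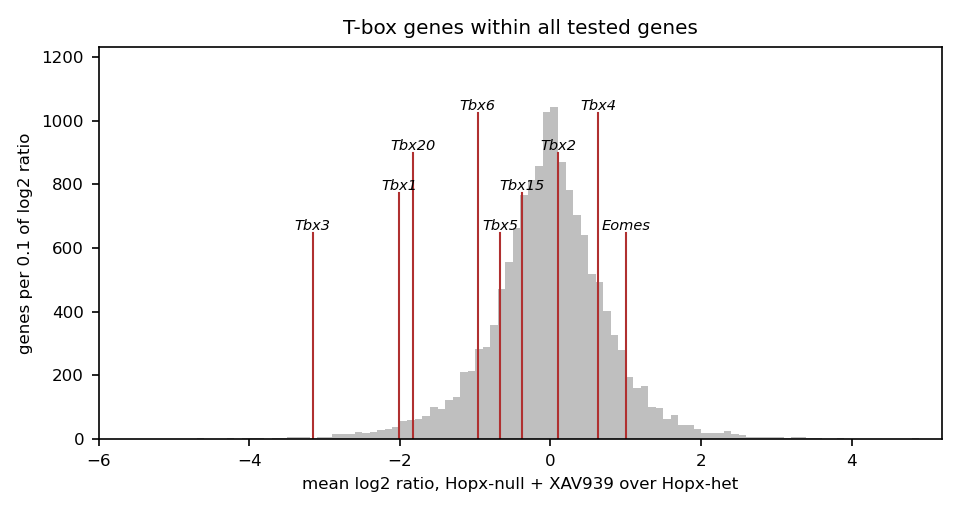
Histogram of the mean log2 ratio of all 14705 tested genes (grey bars, number of genes per 0.1 of log2 ratio) with the 9 tested T-box genes as red lines, whose heights carry no value. Tbx3, Tbx1 and Tbx20 stand in the lower tail and Eomes on the upper shoulder, while Tbx2 lies near the peak.

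Tbx3 and Tbx2 are paralogous repressors, and their measured ratios differed. The Tbx3 level, a normalized log2 signal, was 12.89, 12.80 and 12.56 in heterozygous RNA and 9.60, 9.49 and 9.68 in null RNA on replicates 1, 2 and 3. Every null value lay below every heterozygous one. In median pixel signal, before normalization, the probe read 5292, 6425 and 6486.5 in heterozygous RNA and 962, 1106.5 and 602.5 in null RNA. The log2 ratios were -3.28, -3.31 and -2.89, a mean of -3.16 ± 0.24 (SD, n = 3; 95% interval -3.42 to -2.89; limma adjusted p = 2.26e-07), or 8.93-fold lower. Tbx3 also serves in naive stem cells and in extraembryonic endoderm, whose markers are given further on.

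For Tbx2 the heterozygous levels were 7.33, 7.12 and 6.99 and the null levels 7.36, 7.20 and 7.19, so the RNAs overlapped although the probe was well above background in both on all arrays. Its mean ratio was 0.10 ± 0.08 (SD, n = 3; 95% interval -0.12 to 0.33; limma adjusted p = 0.4), which leaves room for a change of up to the bounds of that interval. Within each array the Tbx2 ratio exceeded that of Tbx3 by 3.32, 3.38 and 3.08, a mean of 3.26 ± 0.16 (SD, n = 3), positive on 3 of 3 arrays. An exact 2-sided sign-flip test gave p = 0.25, the smallest that 3 arrays allow. Tbx2 read near background, at a mean heterozygous level of 7.15 against 6.15 for the Tbx18 probe, which was not well above background. A fall as large as that of Tbx3 could therefore not have shown on the Tbx2 probe. The size of the difference between Tbx2 and Tbx3 depends in part on that floor.

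Tbx5 and Tbx20, the T-box partners of Nkx2-5 and Gata4 in cardiomyocytes, were both lower. Tbx5 levels were 8.57, 8.54 and 8.41 in heterozygous RNA and 7.82, 7.68 and 8.01 in null RNA, without overlap. Its mean ratio was -0.67 ± 0.24 (SD, n = 3; 95% interval -0.93 to -0.40; limma adjusted p = 0.001), or 1.59-fold lower. With marked local backgrounds kept, the Tbx5 ratio was -0.34 and missed the threshold (adjusted p = 0.0529).

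Tbx20, which activates and represses heart genes and is needed for chamber growth, has 3 probes that match different RefSeq transcripts, and all were called lower, as were 31.4% of the 24376 tested probes. On probe A_52_P429876, the brightest, the heterozygous levels were 10.33, 10.44 and 10.79 and the null levels 8.72, 8.65 and 8.70. That probe gave a mean ratio of -1.83 ± 0.24 (SD, n = 3; 95% interval -2.10 to -1.56; limma adjusted p = 2.83e-06), or 3.56-fold lower. Probe A_55_P2162503 gave -1.54, -1.84 and -1.44 on the 3 arrays, 3.04-fold lower. Probe A_55_P1976310 gave a mean of -1.33 ± 0.25 (SD, n = 3), 2.52-fold lower. The first probe's ratio lay below the second's by a mean of -0.23 ± 0.38 (SD, n = 3; exact sign-flip p = 0.5) and below the third's by -0.50 ± 0.43 (SD, n = 3; exact sign-flip p = 0.25, the smallest possible). The 3 probes had the same direction, and 3 arrays are too few for this test to resolve differences in size between them.

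Tbx1, a factor of the second heart field and pharynx that acts upstream of Fgf10 and Fgf8, fell about as far as Tbx20. Its levels were 9.53, 9.40 and 9.47 in heterozygous RNA and 7.39, 7.62 and 7.35 in null RNA, with a wide gap between the groups. The mean ratio was -2.01 ± 0.20 (SD, n = 3; 95% interval -2.27 to -1.76; limma adjusted p = 1.27e-06), or 4.04-fold lower. Fgf10 was lower by a mean ratio of -1.25 ± 0.11 and Fgf8 by -0.64 ± 0.32 (SD, n = 3 each).

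The early T-box genes went in opposite directions. Eomes, which drives definitive endoderm and early cardiac mesoderm from the streak, has 2 probes. On probe A_55_P2150717 the heterozygous levels were 7.40, 7.17 and 7.07 and the null levels 7.80, 8.23 and 8.62, higher on every array. The ratios of 0.41, 1.07 and 1.55 had a mean of 1.01 ± 0.58 (SD, n = 3; 95% interval 0.58 to 1.44; limma adjusted p = 0.00136), or 2.01-fold higher. Replicate 1, alone on its slide, gave the lowest, against a mean of 1.31 for the 2 arrays of the other slide.

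Eomes probe A_55_P2184434 was steadier, with heterozygous levels of 6.60, 6.34 and 6.51 and null levels of 7.78, 7.90 and 7.85. Its mean ratio was 1.36 ± 0.19 (SD, n = 3; limma adjusted p = 1.46e-05 over probes), or 2.56-fold higher, and 28.7% of all probes were called higher. The probes differed by a mean of -0.35 ± 0.51 (SD, n = 3; exact sign-flip p = 0.5). With marked local backgrounds kept the first probe gave 0.69 (adjusted p = 0.148), and with array 3 as labelled, not turned, -0.03.

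Tbx6, which specifies presomitic mesoderm, was lower on one of its 2 probes. Probe A_55_P2061273 had heterozygous levels of 8.11, 8.19 and 8.20 and null levels of 7.16, 7.18 and 7.25, without overlap. Its mean ratio was -0.97 ± 0.03 (SD, n = 3; 95% interval -1.19 to -0.75; limma adjusted p = 3.62e-05), or 1.95-fold lower.

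Tbx6 probe A_55_P2061275, annotated to the same transcript, gave ratios of -0.18, -0.34 and -0.14, a mean of -0.22 ± 0.10 (SD, n = 3; 95% interval -0.45 to 0.01; limma adjusted p = 0.0892 over probes), and its RNAs overlapped in level. Within each array the first probe's ratio lay below the second's by -0.77, -0.67 and -0.81 (exact sign-flip p = 0.25, the smallest possible with n = 3). The mean of both probes was -0.59. With marked local backgrounds kept the first probe gave -0.52 and missed the threshold (adjusted p = 0.079).

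Tbx4, the hindlimb and lung mesenchyme factor that is a paralogue of Tbx5, was higher. Its levels were 7.07, 6.78 and 6.92 in heterozygous RNA and 8.14, 7.41 and 7.12 in null RNA, without overlap. The ratios of 1.08, 0.64 and 0.20 averaged 0.64 ± 0.44 (SD, n = 3; 95% interval 0.28 to 0.99; limma adjusted p = 0.0062), or 1.56-fold higher, and replicate 1 on its own slide carried the largest. Array 3, on which the dyes were taken as exchanged, carried the smallest, and the parts of slide and dye were not tested. Without replicate 1 the Tbx4 ratio was 0.42 (limma adjusted p = 0.0464). With median centring in place of loess it was 0.64 (adjusted p = 0.0868), and with marked local backgrounds kept it was 0.20 (adjusted p = 0.125). Before normalization its median pixel signal was 334.5, 195.5 and 88 in null RNA and 76.5, 78 and 120 in heterozygous RNA. On array 3 the order was thus the reverse of the normalized one. Such raw signals carry each channel's own brightness and background. The raw order was also reversed on replicate 1 for Tbx5 (276.5 null, 270 heterozygous) and Tbx15 (158.5 and 93.5). It was reversed on some arrays for Tbx2 and for Tbx6 probe A_55_P2061275 as well. The Tbx4 ratio exceeded that of Tbx5 by 1.82, 1.49 and 0.60, a mean of 1.30 ± 0.64 (SD, n = 3; exact sign-flip p = 0.25, the smallest possible).

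Tbx15 and Tbx18 mark mesenchyme of the body wall, limb and epicardium. Tbx15 levels were 7.14, 7.13 and 6.89 in heterozygous RNA and 6.84, 6.49 and 6.72 in null RNA, close together but not overlapping. Its mean ratio was -0.37 ± 0.24 (SD, n = 3; 95% interval -0.64 to -0.10; limma adjusted p = 0.0213), or 1.29-fold lower, the smallest of the called members' differences. The call was lost without replicate 1 (-0.41, adjusted p = 0.0531), without replicate 2 (-0.24, adjusted p = 0.255), with median centring, with marked local backgrounds kept and on the authors' deposited values (-0.11, adjusted p = 0.555). The Tbx18 probe was not well above background in either RNA on any array. Its unfiltered ratios of 0.20, 0.10 and -0.29 are given for completeness, and nothing about its expression can be read from them.

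**Figure D3:**
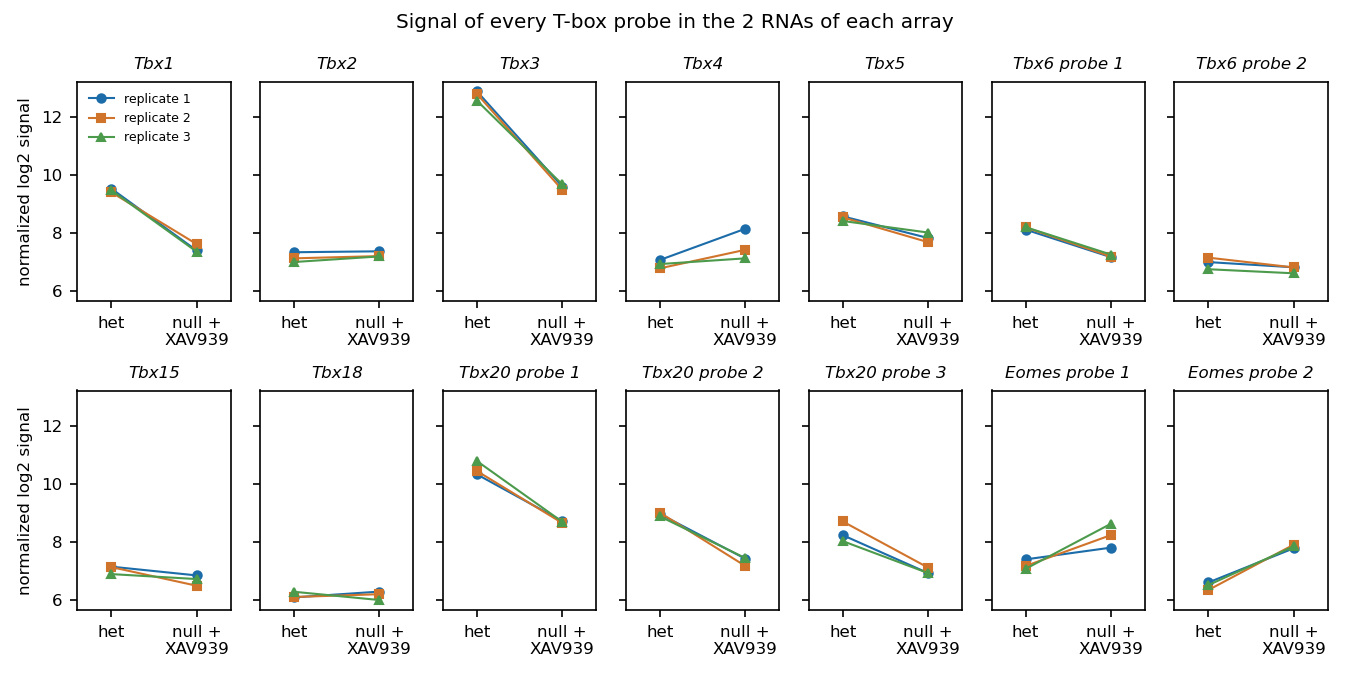
Normalized log2 signal (y axis) of each of the 14 T-box probes in heterozygous and null plus XAV939 RNA (x axis), with a line for each of the 3 arrays. Both Eomes probes rise and the 3 Tbx20 probes fall on every array, whereas the 2 Tbx6 probes differ in slope. Signals of different probes are not comparable in height.

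Among the rest of the family, Mga, a T-box protein that also pairs with MAX, rose by ratios of 0.59, 0.49 and 0.15, a mean of 0.41 ± 0.23 (SD, n = 3; limma adjusted p = 0.0129). Tbr1, a relative of Eomes known from the cortex, gave 0.19 ± 0.13 on its tested probe (SD, n = 3; limma adjusted p = 0.142), and its other probe was below background. Tbx10 gave 0.17 ± 0.26 (SD, n = 3; limma adjusted p = 0.254). T (Brachyury), the streak factor and a direct Wnt target, was too dim to test: it was well above background on 2 of 3 arrays in null RNA and 1 of 3 in heterozygous RNA, with ratios of 0.14, 0.28 and 0.46. Tbx21, the T cell factor, was well above background on 2 of 3 arrays in null RNA and on 0 of 3 in heterozygous RNA. Its ratios of 0.33, 0.23 and 0.03 were not tested, and its levels in the 2 RNAs overlapped. Tbx19 and Tbx22 were not well above background in either RNA. T cell and NK cell markers were given by 2 testable genes of 5, Cd3e and Prf1, of which 0 passed (0.04 ± 0.43 and 0.11 ± 0.18; SD, n = 3).

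No promoter window was available for Tbx2, Tbx3, Tbx5 and Tbx15, so these members were not searched for motifs. Windows (build GRCm38.p6) were read for Tbx1 (2 start sites), Tbx4, Tbx6, Tbx18, Tbx20 and Eomes. Each runs from 250 bases before to 50 bases after the start site. In all, 6 motifs were searched on both strands: the T-box core AGGTGT (in 13.7% of 32851 promoter windows), the TCF/LEF core CTTTGAT (3.73%), the GATA core AGATAA (11.2%), the GC-rich SMAD element GGCGCC (11.9%), TATAAA (13.6%) and CCAAT (37.4%). Shown are the 2 members with the clearest falls that have windows, Tbx1 and Tbx20, and the 2 early genes, Tbx6 and Eomes, which moved in opposite directions. They are written 5′ to 3′ on the strand of the gene, with the motifs found in capitals.
Tbx1, upstream start site, chr16:18590622-18590921, minus strand: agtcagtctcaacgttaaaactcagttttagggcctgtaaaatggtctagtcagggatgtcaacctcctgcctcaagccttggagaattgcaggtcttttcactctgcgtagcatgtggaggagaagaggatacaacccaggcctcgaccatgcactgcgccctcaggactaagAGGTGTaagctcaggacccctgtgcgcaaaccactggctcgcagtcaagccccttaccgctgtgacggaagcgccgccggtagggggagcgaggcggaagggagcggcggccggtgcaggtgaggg
Tbx20, chr9:24774254-24774553, minus strand: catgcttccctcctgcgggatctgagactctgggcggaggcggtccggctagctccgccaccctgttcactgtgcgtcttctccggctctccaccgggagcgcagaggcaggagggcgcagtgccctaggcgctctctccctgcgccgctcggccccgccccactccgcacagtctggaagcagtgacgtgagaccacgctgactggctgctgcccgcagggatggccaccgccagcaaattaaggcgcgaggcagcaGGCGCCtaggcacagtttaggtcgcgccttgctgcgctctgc
Tbx6, chr7:126781233-126781532, plus strand: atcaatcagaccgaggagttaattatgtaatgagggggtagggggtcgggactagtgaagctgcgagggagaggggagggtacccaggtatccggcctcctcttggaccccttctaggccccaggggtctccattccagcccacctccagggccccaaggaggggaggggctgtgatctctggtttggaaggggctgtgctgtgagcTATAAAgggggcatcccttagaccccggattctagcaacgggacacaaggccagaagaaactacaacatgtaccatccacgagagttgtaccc
Eomes, chr9:118477939-118478238, plus strand: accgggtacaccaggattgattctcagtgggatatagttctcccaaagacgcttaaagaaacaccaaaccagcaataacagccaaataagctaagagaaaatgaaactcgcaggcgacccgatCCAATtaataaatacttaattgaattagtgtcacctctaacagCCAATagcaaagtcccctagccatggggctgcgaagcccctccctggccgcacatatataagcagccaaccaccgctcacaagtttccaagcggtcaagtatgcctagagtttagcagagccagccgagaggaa
The T-box core stood 76 bases before the upstream Tbx1 start site and in no other member window. The Tbx20 window held GGCGCC, beginning 8 bases after the start site. In Tbx6 the capitals are TATAAA, 43 bases before the start, and in Eomes they are CCAAT, 127 and 84 bases before it. The Tbx4 window had TATAAA on the minus strand and the Tbx18 window CCAAT on the minus strand, and the window of the downstream Tbx1 start site held none of the 6 motifs. Neither the TCF/LEF nor the GATA core was found in any of the windows. A match describes letters and is not evidence that a factor binds there.

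Several members lie side by side in the RefSeq gene order. Tbx3 and Tbx5 are neighbours on chromosome 5 and both fell, whereas Tbx2 and Tbx4 are neighbours on chromosome 11 and only Tbx4 passed the test. The nearest tested genes on either side of the 10 members that are not members themselves numbered 16. Of these 5 were lower, 6 were higher and 5 did not pass. Among all tested genes 33% were lower and 31.5% higher, so the neighbours were called about as often as genes elsewhere. Beyond Tbx5, the RNA-binding gene Rbm19 rose (0.81 ± 0.14; SD, n = 3) and beyond Tbx3 AW549542 fell (-0.73 ± 0.18; SD, n = 3). Beside Tbx1, Gp1bb rose (0.37 ± 0.04) and Gnb1l did not pass (-0.02 ± 0.14). Both neighbours of Eomes fell, Cmc1 by a ratio of -1.01 ± 0.16 and the golgin gene Golga4 by -1.17 ± 0.43, opposite to Eomes. Tbx6 lay between Ypel3, which fell (-0.96 ± 0.30), and the phosphatase gene Ppp4c, which rose (0.67 ± 0.34). Tbx15 lay between Wars2, which fell (-1.36 ± 0.34), and Wdr3, which rose (0.81 ± 0.08). Dpy19l1 next to Tbx20 rose (0.49 ± 0.16) while Herpud2 on its other side gave -0.27 ± 0.21 and did not pass. Next to Tbx18, Nt5e rose (1.14 ± 0.30) and Cep162 gave -0.08 ± 0.26. Brip1 beside Tbx4 gave -0.07 ± 0.13 and 2610027K06Rik beside Tbx2 gave -0.24 ± 0.24, neither of which passed.

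By Euclidean distance over the 3 array ratios, the genes most like Tbx3 were Entpd2 (distance 0.264, mean -3.03 ± 0.27), Vnn1 (0.344, -3.30 ± 0.12) and Hspb2 (0.39, -2.94 ± 0.25). Those most like Eomes were Zfp428 (distance 0.229, mean 0.96 ± 0.43), Snrpf (0.301, 0.94 ± 0.55) and Eef1akmt4 (0.309, 0.98 ± 0.46), which like its brightest probe were lowest on replicate 1.

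The proteins that T-box factors act with did not move as one. Of 21 partners and cofactors, all tested, 9 were lower, 4 higher and 8 did not pass, with a median ratio of -0.10. Among all tested genes 33% were lower and 31.5% higher. The largest falls were in heart factors: Gata6 (-1.93 ± 0.32), Isl1 (-1.89 ± 0.05) and Gata4 (-1.80 ± 0.22; SD, n = 3 each). Nkx2-5 fell by less (-0.98 ± 0.22). The largest rises were those of the histone deacetylase Hdac1 (1.08 ± 0.39), the Groucho-type corepressor Tle4 (1.04 ± 0.16) and the BAF ATPase Smarca4 (0.44 ± 0.21). Hdac2 also rose (0.39 ± 0.11), whereas the BAF subunit Smarcd3 fell (-1.16 ± 0.20), and Tle1 (-0.10 ± 0.03), Tle3 (0.05 ± 0.32), Chd4 (0.12 ± 0.16) and Kdm6b (-0.28 ± 0.31) did not pass. Mef2c did not pass either (0.11 ± 0.18).

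Genes that heart T-box factors are known to regulate were mostly lower. Of 18, 17 were tested, and 11 were lower, 4 higher and 2 not passed, with a median of -0.64. The shares over all tested genes were 33% lower and 31.5% higher. The falls were led by Myh6, the atrial and adult ventricular myosin (-2.32 ± 0.10), Id2, an inhibitor of bHLH factors that is a Tbx5 target in the conduction system (-2.30 ± 0.19), and Tgfb2, a ligand of cushion formation (-2.13 ± 0.10). Nppa, which Tbx5 activates and Tbx2 and Tbx3 repress, fell by a ratio of -1.52 ± 0.30. The rises were led by the gap junction genes Gja5 (1.28 ± 0.27) and Gja1 (0.66 ± 0.19) and by Mycn, a cell cycle regulator (0.64 ± 0.36). The potassium channel gene Kcna5 (0.21 ± 0.20) did not pass, and the pacemaker channel gene Hcn4 was not above background.

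Genes linked to Eomes, T and Tbx6 in the streak divided evenly. Of 17, 12 were tested, 6 were higher, 6 lower and 0 did not pass, with a median of -0.17. Over all tested genes 31.5% were higher and 33% lower. Fgf8 also stands in the list of heart targets and counts in both. The lower ones included the endoderm factors Foxa2 (-4.27 ± 0.14) and Sox17 (-2.53 ± 0.10), and Snai1, a repressor of E-cadherin (-0.78 ± 0.08). The higher ones included the Nodal antagonist Cer1 (1.13 ± 0.24), the Notch ligand Dll3 (0.99 ± 0.24) and the early cardiac mesoderm factor Mesp1 (0.86 ± 0.18). Mesp1 was well above background in heterozygous RNA on 1 of 3 arrays and Cer1 on 2 of 3. Mixl1, Msgn1 and Wnt3a were not above background in either RNA.

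Signals and factors known to act above T-box genes changed in both directions. Of 24, 23 were tested, with 11 lower, 8 higher, 4 not passed and a median of -0.32, against 33% lower and 31.5% higher over all tested genes. The 4 BMP ligands in the list, which induce Tbx2 and Tbx3 in the heart, all fell: Bmp4 (-1.64 ± 0.49), Bmp5 (-1.61 ± 0.36), Bmp2 (-1.47 ± 0.24) and Bmp7 (-1.03 ± 0.03). Shh, which acts above Tbx1 in the pharynx, was not well above background in null RNA and was at least 2.02-fold lower. Foxa2 was the largest fall, as given above. Of the Nodal pathway, which acts above Eomes, Foxh1 (1.79 ± 0.28) and Nodal (1.25 ± 0.17) rose, Smad3 fell (-0.58 ± 0.14), and Smad2 (-0.23 ± 0.18) and Smad4 (0.04 ± 0.39) did not pass. Foxc2, a forkhead regulator of Tbx1, rose by 1.57 ± 0.16 and Aldh1a2, which makes retinoic acid, by 1.66 ± 0.56. The Wnt effector genes Lef1 (2.15-fold) and Tcf7 (1.47-fold) also rose, while the ligand Wnt3 fell (-0.45 ± 0.16).

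Markers of several cell types moved beside the T-box genes. The background for all marker lists is again 33% of tested genes lower and 31.5% higher. Some markers, such as Foxa2, Sox17, Myh6, Nkx2-5 and Aldh1a2, also stand in lists above, so the counts are not independent. All 10 cardiomyocyte markers fell (median -1.70), and their summed level, with log2 taken back to a linear scale, ranged from 201000 to 221000 in heterozygous and from 55600 to 69000 in null RNA, none of them at background. Myl3 (-2.70), Myh7 (-2.63) and Myh6 led them. Summed levels, here and below, follow mainly the brightest probes of a list, and signals of different probes are not comparable in height. All 11 visceral endoderm markers fell (median -4.06), from a summed level of 153000 to 172000 down to 6310 to 12000, led by Cubn (-5.54), Rbp4 (-5.18) and Foxa1 (-4.34). Of 11 epiblast and pluripotency markers 8 rose and 3 fell (median 1.85), and the summed level went from 12300 to 16600 up to 81600 to 115000. Pou3f1 (4.46), Fgf5 (3.99) and Dnmt3b (3.83), genes of the primed epiblast, led the rises, and Tfcp2l1 (-2.89), Klf4 (-2.55) and Zfp42 (-1.19) were those that fell. These 3 are known from naive stem cells, but so are Esrrb (0.98) and Nanog (1.00), which rose. The part of these markers in the T-box results was not tested.

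Of 9 trophoblast markers, relevant because the trophoblast stem cells also use Eomes, 7 were tested, 6 fell and 1 did not pass (median -1.25), with a summed level of 13800 to 15200 in heterozygous and 5320 to 7560 in null RNA. Krt7 (-1.79), Gata3 (-1.66) and Cdx2 (-1.66) led the falls, opposite to Eomes, and Elf5 and Tpbpa were not above background. Epicardial markers were mixed: of 5, Bnc1 (-2.10) and Upk3b (-0.96) fell, Aldh1a2 rose, and Wt1 and Tcf21 did not pass, at summed levels of 1290 to 1420 in heterozygous and 1060 to 1410 in null RNA. Of 9 paraxial and limb mesoderm markers 8 were tested, 5 rose, 1 fell and 2 did not pass (median 0.5). Their summed levels were 2980 to 3840 in heterozygous and 2600 to 2880 in null RNA. Prrx2, the one that fell, was the brightest (mean levels 11.34 and 10.61) and made up most of these sums. Meox1, not well above background in heterozygous RNA, was at least 3.77-fold higher, Meox2 (0.95) and Tcf15 (0.90) rose, and Prrx2 (-0.73) fell while Msgn1 was at background. Fibroblast markers, which feeder cells would also carry, fell for 3 of 5, rose for 1 and did not pass for 1, at summed levels of 28800 to 42100 and 15900 to 25300. The collagen genes Col1a1 (-2.81) and Col1a2 (-0.82) and the matrix gene Postn (-2.14) fell, and Thy1 (0.97) rose. Of 6 neural markers 4 were tested, 3 rose and 1 did not pass, from 1610 to 2020 up to 10100 to 11200. The neuronal tubulin gene Tubb3 (3.48), the progenitor filament gene Nes (2.60) and Map2 (1.27) were those that rose. The part of these marker lists in the T-box results was not tested either.

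**Figure D4:**
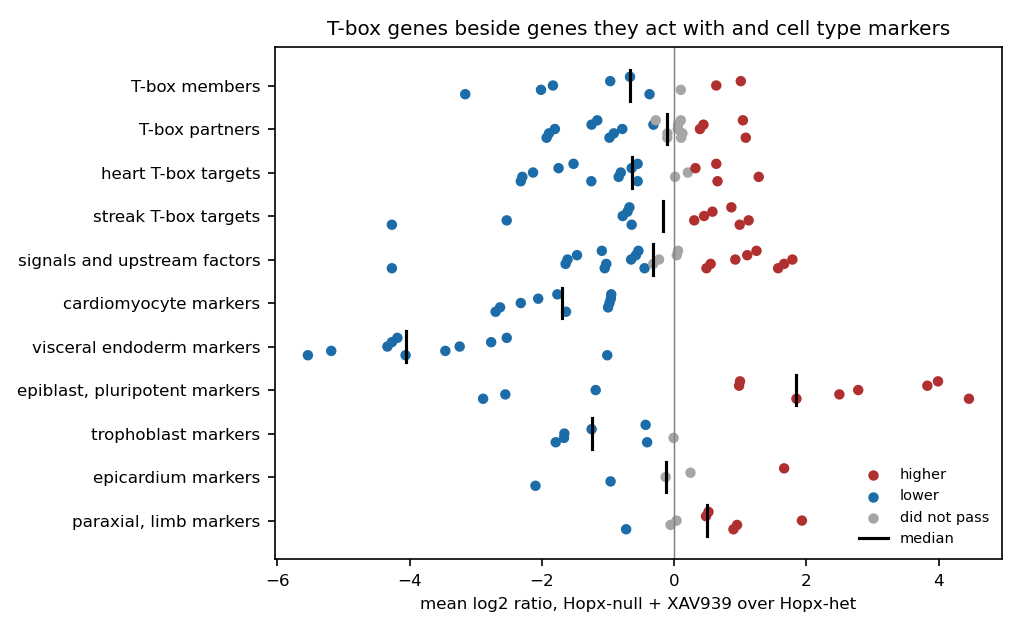
Mean log2 ratio of Hopx-null plus XAV939 over Hopx-heterozygous RNA (x axis) for each tested gene of the T-box members, of the lists around them and of cell type markers (y axis). Red points were called higher, blue points lower and grey points did not pass, and the black bar is the list's median. Cardiomyocyte and visceral endoderm markers lie wholly below 0, and the members and heart targets spread over both sides with medians of -0.67 and -0.64.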

How the data were processed

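Total RNA in Cy5 and Cy3 was hybridised to Agilent design 026655, annotated on mm9 per the file headers. The authors extracted the arrays with Agilent Feature Extraction, version 11.5.1.1 as the file headers name it, or 8.5.1.1 per the submitters' processing notes. The deposited median spot and local background signals are intensity values without normalization. The deposited processed signals are intensity values, background-subtracted and dye-normalized, and, per the file headers, the log ratio column holds log10 values of red, Cy5, divided by green, Cy3. The authors' deposited processed values are taken as log2 ratios. They correlated with the scanner ratios of Cy5 over Cy3 at r = 0.67, 0.772 and -0.775, which does not show the base of the logarithm. Their medians were 0.09, -0.08 and 0.05, and their normalization and centring are not given in the sources used here. Other deposited columns hold 0 or 1 marks.

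The sign of array 3 was turned. Median signals were corrected by normexp (offset 50) and loess within each array in limma 3.58.1 (R 4.3.3), with control and outlier spots at weight 0 and marked local backgrounds replaced by the channel's median unmarked one. Of the 14 member spots, 0 were marked as outliers and 1 had its local background replaced, on array 3. Levels are from loess followed by Aquantile. Probes were tested where, array by array, 1 channel or both stood well above background, and the brightest tested probe represented its gene. RefSeq accessions named 28025 of 39429 probes. lmFit and eBayes tested the mean ratio against 0 (8.65 degrees of freedom, 6.65 of them prior, median SD 0.166), adjusted by Benjamini-Hochberg over genes. The further probes of a gene were adjusted over 24376 probes. The script was tested on simulated ratios. A tested probe not well above background in 1 RNA on every array has only a bound there, given as "at least" fold. The bound is the bright RNA's mean less a floor. Per array that floor is the higher of the dim probe's own signal and the lowest signal among probes well above background. Such bounds are per channel and open to dye bias.

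The members and lists were chosen with earlier results of these data known. Named are every member and family gene, the 3 largest called rises and falls of the other lists and any gene a count needs, the 3 genes nearest in pattern to the members with the largest rise and fall, and each member's nearest tested neighbours. Of the other genes named, Nkx2-5, Mef2c, Nppa, Bmp2, Bmp7, Nodal, Smad2, Smad3, Smad4, Shh, Lef1, Tcf7, Wnt3, Fgf10, Fgf8, Kcna5, Hdac2, Smarcd3, Tle1, Tle3, Chd4, Kdm6b, Esrrb and Nanog were chosen after their values were seen. The values of 1 listed gene are not reported here. Alternatives covered background correction, normalization, filters, probe choice, each replicate left out, slide, the authors' values and the orientation of array 3.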

Additional observations from a re-analysis of the deposited data

How the results depend on the processing

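The counts of 2 members higher and 6 lower were recomputed under 13 alternatives. With marked local backgrounds kept they became 0 higher and 3 lower (Tbx1, Tbx3 and Tbx20 remained), with median centring 1 was higher, and with array 3 as labelled 0 were higher and 0 lower. Over all genes, 4635 higher and 4849 lower became 2664 and 2257 with marked backgrounds kept, 3034 and 2019 with median centring, and 0 and 0 in limma with array 3 as labelled, where 13 and 27 genes had an unadjusted p under 0.05, 0 of them members. The cause was not tested. Leaving out each replicate gave 2 to 2 members higher and 5 to 6 lower, and 3500 to 5278 genes higher and 3709 to 5340 lower. Median centring moved the median of all genes by 0.107 and the higher share of calls from 48.9% to 60%.

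Apart from array 3 as labelled, where Eomes reversed to -0.03 (limma adjusted p = 0.999), the member ratios ranged from -2.49 to -1.30 for Tbx1, -3.29 to -2.85 for Tbx3, -1.99 to -1.43 for Tbx20, -0.85 to -0.34 for Tbx5, -1.44 to -0.52 for Tbx6, -0.77 to -0.11 for Tbx15, 0.05 to 0.14 for Tbx2, 0.20 to 1.23 for Tbx4 and 0.69 to 1.48 for Eomes. All kept their sign there. Tbx1, Tbx3 and Tbx20 also kept their calls there, with adjusted p-values of at most 0.0306, 0.00246 and 0.0184. Probes near background limit what can be read from their ratios, small ones above all. Among them were those of Tbx2, Tbx4 and Tbx15 and Tbx6 probe A_55_P2061275. The brightest Eomes probe had a mean level of 7.21 in heterozygous RNA, close to the 7.15 of Tbx2. In null RNA, Tbx6 probe A_55_P2061273 (7.20) and Tbx20 probe A_55_P1976310 (6.99) lay near that level too. Eomes probe A_55_P2184434 was near background in heterozygous RNA, at a mean level of 6.48 against 6.15 for Tbx18. The ratios already pair the 2 RNAs of an array, and no further replicate block could be fitted. The random slide block was not run because it could not be estimated from 3 arrays, and a fixed slide term, chosen after seeing the data, gave 2 members higher and 6 lower, against 28.7% and 30% of all genes.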
